A study of Homo sapiens with 6 samples.

Results

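Of the 62696 genes in each deposited table, 9 genes of steroid hormone action were followed by symbol through 12Z cells given a small interfering RNA (siRNA) against the long non-coding RNA LINC01638 or a control siRNA. They are the receptor genes ESR1, ESR2, GPER1, PGR and NR3C1, the oestrogen-response gene GREB1, and the enzyme genes STS, HSD17B1 and CYP19A1. 12Z is an established human epithelial cell line derived from endometriosis, the growth of endometrium-like tissue outside the uterus. The 6 libraries were 3 with LINC01638 siRNA (1 sequence, LINC01638_2) and 3 with control siRNA, each with replicates A, B and C, from cells at passage 40 harvested 72 h after transfection. All cells grew in medium with fetal calf serum, and the labels name no added hormone. The labels do not say whether the replicates were separate cultures, so p-values reflect only how much these libraries vary, and that variation may be technical.

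Oestrogens act through the nuclear receptors ERα and ERβ, encoded by ESR1 and ESR2, which bind DNA and switch on genes such as PGR and GREB1, and through the membrane receptor GPER1. Progesterone and glucocorticoids act through the related nuclear receptors of PGR and NR3C1. Endometriosis is an oestrogen-dependent disease with a weakened progesterone response, and its lesions are known for making oestradiol themselves, with aromatase (CYP19A1) converting androgens, steroid sulphatase (STS) freeing sulphated steroids and HSD17B1 reducing oestrone to oestradiol.

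Counts assigned to genes ran from 50470195 to 58148664 per library with LINC01638 siRNA and from 45617234 to 55031286 with control siRNA. LINC01638 itself, on chromosome 22, stood at 2.11 ± 0.163 CPM with LINC01638 siRNA and 7.70 ± 0.0943 CPM with control siRNA (CPM, counts scaled to the effective library size; mean ± SD, n = 3 each). Its log2 fold change was −1.87, with an SE of 0.111 and an edgeR adjusted p = 3.73e-11. The epithelial keratin genes KRT8, KRT18 and KRT19 were among the abundant markers in every library, whereas EPCAM and CDH1 stayed under 10 CPM. The summed level of 6 epithelial markers was 3179 to 3708 CPM with LINC01638 siRNA and 5171 to 5618 CPM with control siRNA, and that of 7 stromal fibroblast markers, COL1A1 and THY1 among them, was 3555 to 3818 CPM with LINC01638 siRNA and 4667 to 5586 CPM with control siRNA. These sums rest on a few abundant genes: EPCAM rose 3.64-fold (edgeR adjusted p = 2.33e-06) while the other 5 epithelial markers fell, and PDGFRA and MME rose while the other 5 stromal markers fell. Endothelial markers summed to 10.3 to 12.4 CPM with LINC01638 siRNA and 12.6 to 15.3 CPM with control siRNA; of these KDR, the most abundant, fell, VWF and CDH5 rose, and the list's median log2 fold change was 0.77. Immune markers summed to 34.7 to 35.8 CPM with LINC01638 siRNA and 46.5 to 53.3 CPM with control siRNA, nearly all of it CD14, and granulosa or luteal markers to 18.5 to 21.8 CPM with LINC01638 siRNA and 12.2 to 14.3 CPM with control siRNA. Of the 5 immune markers 3 were tested, with 1 higher, 1 lower and 1 not passing. The higher one, CSF1R, reached the filter cutoff in fewer than 3 control libraries. Of the 5 granulosa or luteal markers 3 were tested, with 1 higher and 2 not passing. CD3E, FSHR and LHCGR had no count in any library. The part of these marker levels in the results below was not tested.

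Of the 9 genes, 7 passed the filter on low counts and could be tested, each with enough counts in all 3 control libraries. GREB1, STS and GPER1 rose with LINC01638 siRNA, PGR fell, and ESR1, NR3C1 and HSD17B1 did not pass (edgeR quasi-likelihood test, adjusted p threshold 0.05). Over all 18569 genes tested, 56.0% passed, 26.3% higher and 29.6% lower, so that 4 of 7 passing is close to the background and only the identity and size of the changes are described here. With library totals alone as the scale, the split over all genes was 6349 higher and 4288 lower, against 4887 higher and 5503 lower with the TMM scaling used here. In 6 of the 7 tested genes the 2 groups of libraries did not overlap, where 61.5% of all tested genes had no overlap. CYP19A1 lay at or under the floor of 3 counts in all 6 libraries and ESR2 in 4 of 6, and neither was tested.

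**Figure D1:**
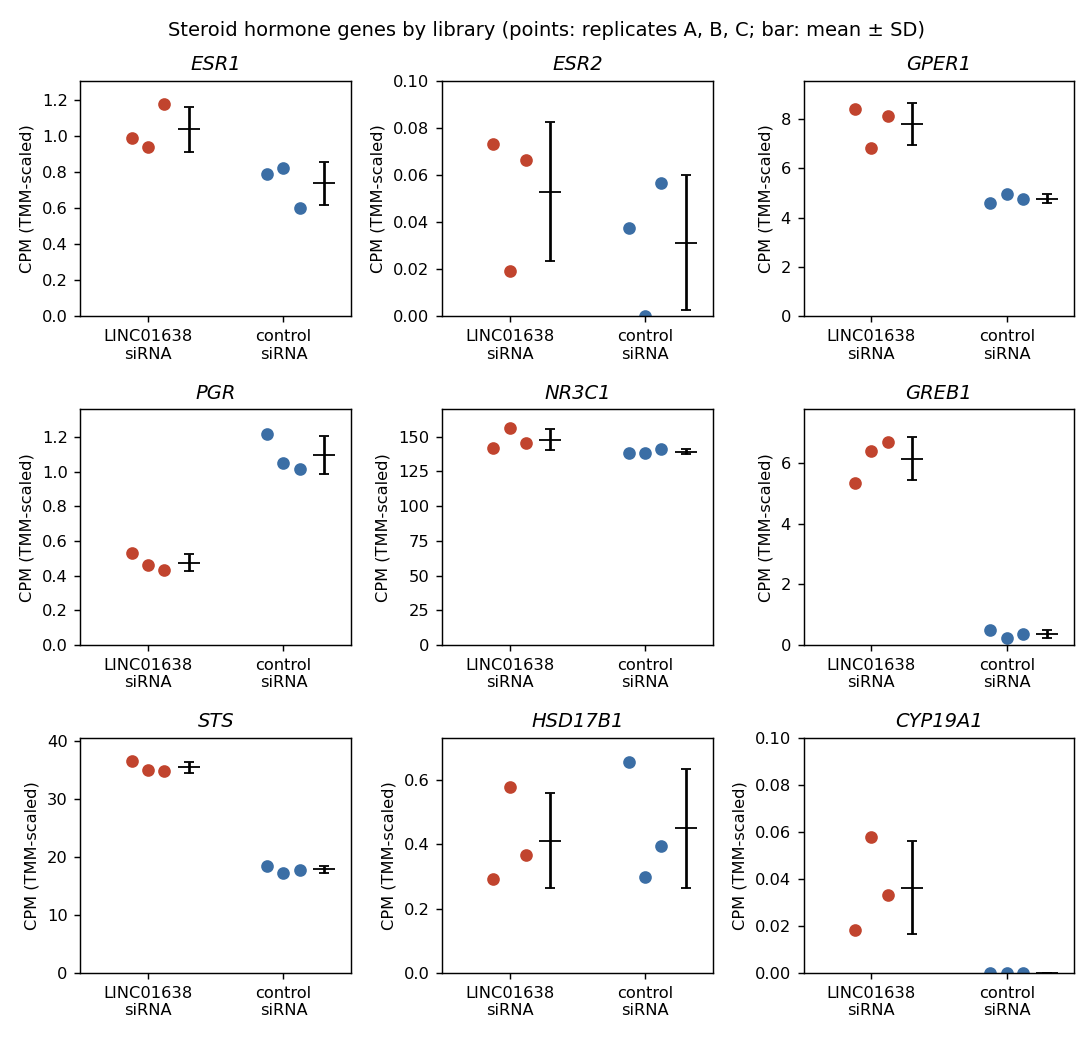
Level of each of the 9 genes in every library, in TMM-scaled CPM on linear axes from 0, with LINC01638 siRNA left of control siRNA; points are replicates A, B and C and the black bar is mean ± SD. GREB1 sits between 5.35 and 6.70 CPM in the LINC01638 siRNA libraries and below 0.5 CPM in the control libraries, while ESR2 and CYP19A1 stay under 0.1 CPM in all.

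The promoter sequences of the tested genes that passed are shown first, because STS and GPER1 rose and PGR fell in the same cells. RefSeq windows of 300 bases (250 before and 50 after an annotated start, GRCh38.p14) were found for 7 of the 9 genes; GREB1 and HSD17B1 were not analysed here. The first listed window of each gene is printed 5′ to 3′ on the gene's strand: STS at chrX:7147040-7147339 (plus strand, the first of 5 listed starts), GPER1 at chr7:1086868-1087167 (plus strand) and PGR at chr11:101129028-101129327 (minus strand). These listed starts differ from the gene starts in GENCODE 29. The STS window lies before the gene's start at 7219456, farther off than the near end of the neighbouring gene PUDP, 71.3 kb below STS. The GPER1 window lies inside the gene, past its start at 1082208. The PGR window likewise lies inside the gene, past its start at 101130524. Capitals mark the oestrogen receptor half-site GGTCA or its reverse complement TGACC, and the half-site AGAACA or its reverse complement TGTTCT of glucocorticoid and progesterone receptors.
STS: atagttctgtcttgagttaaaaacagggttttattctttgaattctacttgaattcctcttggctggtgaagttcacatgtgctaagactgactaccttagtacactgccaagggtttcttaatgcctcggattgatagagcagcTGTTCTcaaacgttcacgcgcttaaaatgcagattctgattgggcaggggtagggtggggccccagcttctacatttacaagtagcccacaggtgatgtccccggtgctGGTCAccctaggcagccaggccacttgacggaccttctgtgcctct
GPER1: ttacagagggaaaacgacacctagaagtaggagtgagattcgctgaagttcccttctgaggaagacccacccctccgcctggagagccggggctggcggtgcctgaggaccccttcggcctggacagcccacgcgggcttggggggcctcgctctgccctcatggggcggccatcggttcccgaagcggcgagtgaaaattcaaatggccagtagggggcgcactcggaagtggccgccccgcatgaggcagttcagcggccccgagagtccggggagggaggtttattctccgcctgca
PGR: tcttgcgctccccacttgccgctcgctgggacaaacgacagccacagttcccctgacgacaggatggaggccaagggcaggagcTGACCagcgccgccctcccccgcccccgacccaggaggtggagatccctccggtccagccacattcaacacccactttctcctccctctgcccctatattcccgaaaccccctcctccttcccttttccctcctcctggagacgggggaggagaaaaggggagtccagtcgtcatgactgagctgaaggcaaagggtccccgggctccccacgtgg

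The STS window holds 1 TGTTCT, 105 bases before the start, and 1 GGTCA just after it; the PGR window holds 1 TGACC, 166 bases before the start, and the GPER1 window holds none of these words. The words were searched on both strands and did not overlap each other. An oestrogen half-site was present in 37.4% of all 35116 windows and in 14 of the 35 windows listed for the 7 genes, and the other half-site in 14.8% of all windows and in 6 of the 35. The full palindromes, in which GGTCA and TGACC or AGAACA and TGTTCT stand 3 bases apart, were in none of the 35 windows, and in 20 and 1 of all windows. These matches describe letters only, and the counts do not tell which start the cells used.

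GREB1, whose protein binds ERα and whose transcription is a classic readout of oestrogen, showed the largest change of the set. Its counts were 292, 333 and 403 with LINC01638 siRNA (replicates A to C), against 26, 10 and 19 with control siRNA in that order. In CPM these were 5.35, 6.41 and 6.70 with LINC01638 siRNA, against 0.488, 0.229 and 0.358 with control siRNA. All 3 LINC01638 siRNA libraries were far above all 3 control libraries. The rise was 16.7-fold (log2 fold change 4.07, SE 0.193, 95% interval 3.66 to 4.47, edgeR adjusted p = 1.96e-12), rank 27 from the largest rise among the 18569 genes tested. Of those genes, 54 (0.291%) were called and at least 8-fold higher.

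GREB1 (ENSG00000196208.14) lies on chromosome 2, 11482341 to 11642788 on the plus strand of GRCh38. Its exons share no base with another gene of the GENCODE 29 annotation; RN7SL674P, a small RNA pseudogene in its introns on the same strand, did not pass (log2 fold change −0.18, edgeR adjusted p = 0.390). Further, 98.5% of the 50-base windows of its annotated transcripts occur in no other gene's transcripts, so its counts are little exposed to shared reads. Few reads fell on the strand opposite its exons: 0, 1 and 7 with LINC01638 siRNA and 2, 2 and 0 with control siRNA. The tested protein-coding genes on either side, looked up after the values of GREB1 were seen, moved much less. E2F6, a repressor of the E2F family 16.2 kb below, rose to 26.6 CPM with LINC01638 siRNA, against 14.9 CPM with control siRNA (log2 fold change 0.84, edgeR adjusted p = 1.61e-09). LPIN1, a phosphatidate phosphatase gene 34.8 kb above, had a log2 fold change of 0.20 (edgeR adjusted p = 0.00142). Reads that met no annotated exon on the counted strand made up 13.2% ± 1.67 of mapped reads with LINC01638 siRNA and 9.18% ± 0.864 with control siRNA (SD, n = 3 each). These include reads over exons on the other strand, and their part in the rise of GREB1 was not tested.

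The receptors of oestrogen differed widely in level. ESR1, the ERα gene on chromosome 6 (151656691 to 152129619, plus strand), had 0.989, 0.943 and 1.18 CPM with LINC01638 siRNA, against 0.788, 0.824 and 0.603 CPM with control siRNA. These came from 54, 49 and 71 counts with LINC01638 siRNA and 42, 36 and 32 counts with control siRNA. The groups did not overlap, but the difference missed the threshold after adjustment (log2 fold change 0.50, SE 0.230, 95% interval 0.018 to 0.98, edgeR adjusted p = 0.0723). It passed with library totals alone (adjusted p = 0.0315) and when protein-coding genes were fitted by themselves (adjusted p = 0.0395). The interval runs from almost no change to almost 2-fold, which is as far as these counts resolve it.

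ESR2, the ERβ gene on chromosome 14 (64084232 to 64338112, minus strand), is often described as prominent in endometriotic tissue. It had 4, 1 and 4 counts with LINC01638 siRNA and 2, 0 and 3 counts with control siRNA, so that all control libraries and 1 of the LINC01638 siRNA libraries were at or under the floor of 3 counts. No difference in ESR2 was detectable at this depth, and no fold is given. AL161756.1, another annotated gene on the same strand, shares 523 exon bases with ESR2. It had 4, 3 and 4 counts with LINC01638 siRNA and 4, 6 and 7 counts with control siRNA. Reads over several genes were left out, and their part in the low count of ESR2 was not tested. More reads lay on the strand opposite the exons of ESR2 than on its own, 94.9% of the reads of both strands with LINC01638 siRNA and 94.8% with control siRNA. Counted without regard to strand, ESR2 had a log2 fold change of 0.72 and passed (edgeR adjusted p = 0.0370), a value that rests mainly on the reads of the opposite strand.

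GPER1, the G protein-coupled membrane receptor of oestrogen on chromosome 7 (1082208 to 1093815, plus strand), was the most abundant of the 3 oestrogen receptor genes per length. Its levels were 8.41, 6.81 and 8.12 CPM with LINC01638 siRNA, against 4.60, 4.97 and 4.77 CPM with control siRNA. Every LINC01638 siRNA library lay above every control library. GPER1 rose 1.63-fold (log2 fold change 0.71, SE 0.104, edgeR adjusted p = 8.38e-06). It lies within C7orf50, a gene on the opposite strand with which it shares no exon base, and C7orf50 fell (log2 fold change −0.49, edgeR adjusted p = 1.12e-07). The tested protein-coding genes on either side were looked up after the values were seen. GPR146, 22.9 kb below, did not pass (log2 fold change 0.049, edgeR adjusted p = 0.757). ZFAND2A, 58.3 kb above, rose (log2 fold change 0.41, edgeR adjusted p = 5.58e-05).

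PGR, the progesterone receptor gene on chromosome 11 (101029624 to 101130524, minus strand), is itself a textbook target of ERα, and it moved opposite to GREB1. It had 29, 24 and 26 counts with LINC01638 siRNA, against 65, 46 and 54 counts with control siRNA. In CPM it stood at 0.531, 0.462 and 0.432 with LINC01638 siRNA, against 1.22, 1.05 and 1.02 with control siRNA, again without overlap. The fall was 2.31-fold (log2 fold change −1.21, SE 0.244, 95% interval −1.72 to −0.70, edgeR adjusted p = 3.00e-04). PGR-AS1, which overlaps 812 exon bases of PGR on the opposite strand, had no count in any library. The tested protein-coding genes on either side of PGR were likewise looked up after the values were seen. ARHGAP42, 35.7 kb below, rose (log2 fold change 0.85, edgeR adjusted p = 1.09e-08). CEP126, as far as 784 kb above, did not pass (log2 fold change −0.14, edgeR adjusted p = 0.360).

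NR3C1, the glucocorticoid receptor gene on chromosome 5 (143277931 to 143435512, minus strand), was by far the most expressed of the 9 genes. Its levels were 142, 156 and 145 CPM with LINC01638 siRNA, against 138, 138 and 141 CPM with control siRNA. The lowest LINC01638 siRNA library and the highest control library lay within 1 CPM of each other, and replicate B stood above the other two LINC01638 siRNA libraries. NR3C1 did not pass (log2 fold change 0.086, SE 0.048, 95% interval −0.015 to 0.19, edgeR adjusted p = 0.140). The difference was small under every alternative run, but it passed with library totals alone (0.19), with the stricter filter (0.12) and with protein-coding genes only (0.13).

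**Figure D2:**
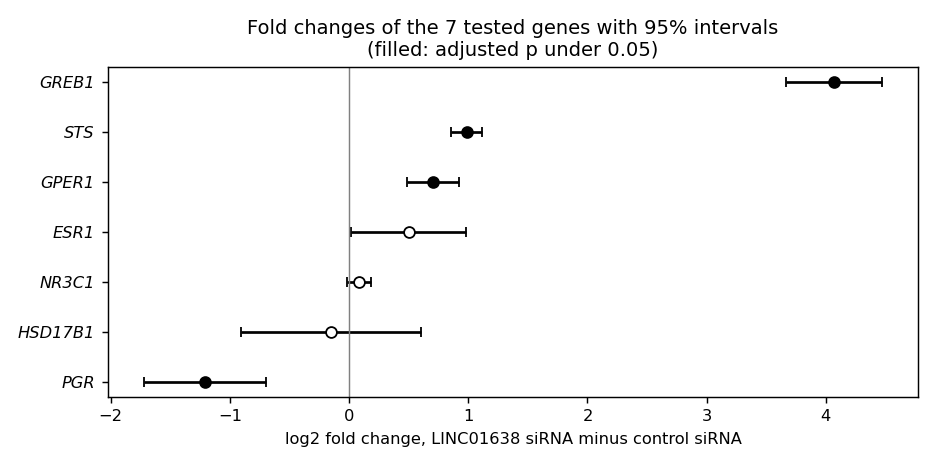
Log2 fold changes of the 7 tested genes, LINC01638 siRNA minus control siRNA, with 95% intervals from the edgeR fit; filled points passed an adjusted p of 0.05. GREB1 at 4.07 stands apart from STS at 0.99 and GPER1 at 0.71, PGR lies at −1.21, and the intervals of HSD17B1 and NR3C1 span 0.

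Among the enzymes, STS rose and the other two were near the limit of detection. STS, the sulphatase that frees oestrone and dehydroepiandrosterone from their sulphates, lies on chromosome X (7219456 to 7354810, plus strand). Its levels were 36.6, 35.1 and 34.9 CPM with LINC01638 siRNA, against 18.6, 17.3 and 17.9 CPM with control siRNA. The libraries of each group lay close together and far from those of the other. STS rose 1.98-fold (log2 fold change 0.99, SE 0.0612, 95% interval 0.86 to 1.11, edgeR adjusted p = 7.05e-11). Of its 50-base windows 99.9% occurred in no other gene's transcripts. The tested protein-coding genes on either side of it, looked up after the values were seen, fell. PUDP, 71.3 kb below, had a log2 fold change of −0.25 (edgeR adjusted p = 0.00537). PNPLA4, as far as 543 kb above, had one of −0.44 (edgeR adjusted p = 0.00117).

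HSD17B1, the enzyme that reduces oestrone to oestradiol, lies on chromosome 17 (42549214 to 42555213, plus strand). It had 16, 30 and 22 counts with LINC01638 siRNA, against 35, 13 and 21 counts with control siRNA, and the groups overlapped. The log2 fold change was −0.15 (SE 0.361, edgeR adjusted p = 0.744), with a 95% interval from −0.91 to 0.60, so that a rise or a fall of about 1.5-fold lies within it. Its sign turned without LINC01638 siRNA replicate A (0.035) or control replicate A (0.23).

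Far more reads lay opposite HSD17B1 than on its own strand. The opposite strand of its exons had 675, 739 and 783 counts with LINC01638 siRNA, against 1127, 1036 and 1049 counts with control siRNA, 97.0% and 97.9% of the reads of both strands. An annotated antisense gene, HSD17B1-AS1 (ENSG00000266962.3, chromosome 17, 42552436 to 42554748, minus strand), shares 1971 exon bases with it and was named after its values were seen. HSD17B1-AS1 stood at 13.9, 15.9 and 14.5 CPM with LINC01638 siRNA, against 23.0, 26.1 and 21.7 CPM with control siRNA. It fell 1.60-fold without overlap of the groups (log2 fold change −0.68, SE 0.0780, edgeR adjusted p = 3.65e-07). The part of reads from the other strand in the low count of HSD17B1 was not tested.

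CYP19A1, the aromatase gene on chromosome 15 (51208057 to 51338610, minus strand), had 1, 3 and 2 counts with LINC01638 siRNA and no count in any control library. All 6 libraries were at or under the floor of 3 counts, so that aromatase RNA was not detectable above the floor with either siRNA.

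**Figure D3:**
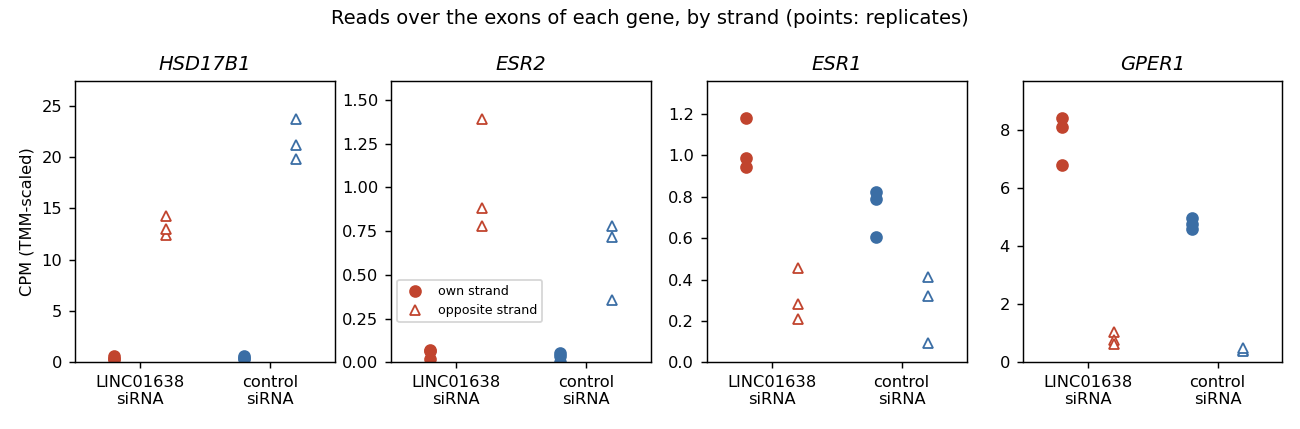
Reads over the exons of HSD17B1, ESR2, ESR1 and GPER1 on the gene's own strand (filled circles) and on the opposite strand (open triangles), in CPM on linear axes from 0, with LINC01638 siRNA left of control siRNA and 3 replicates each. For HSD17B1 and ESR2 nearly all reads lie on the opposite strand, 97.0% and 94.9% with LINC01638 siRNA, whereas for GPER1 it is 9.59%.

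Divided by exon length (the union of GENCODE 29 exons), the order of levels was, from the highest with LINC01638 siRNA, NR3C1 at 16.1 ± 0.807 CPM per kilobase, STS at 5.45 ± 0.144, GPER1 at 2.47 ± 0.270 and GREB1 at 0.498 ± 0.0576 (SD, n = 3). ESR1 at 0.0749 ± 0.00911 and HSD17B1 at 0.0728 ± 0.0261 overlapped in range, PGR followed at 0.0309 ± 0.00330, and ESR2 and CYP19A1 overlapped at the bottom. With control siRNA the first 3 places were the same, with NR3C1 at 15.2 ± 0.179 CPM per kilobase, STS at 2.75 ± 0.102 and GPER1 at 1.52 ± 0.0589. HSD17B1 at 0.0796 ± 0.0328 overlapped with PGR at 0.0712 ± 0.00699, ESR1 followed at 0.0533 ± 0.00855, and GREB1 was seventh at 0.0290 ± 0.0105. With the longest annotated transcript as length, ESR1 came before HSD17B1 and PGR in the control libraries too, at 0.114 CPM per kilobase. GREB1 therefore moved past ESR1, PGR and HSD17B1 in the order, and PGR fell behind ESR1 by the exon-union length.

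**Figure D4:**
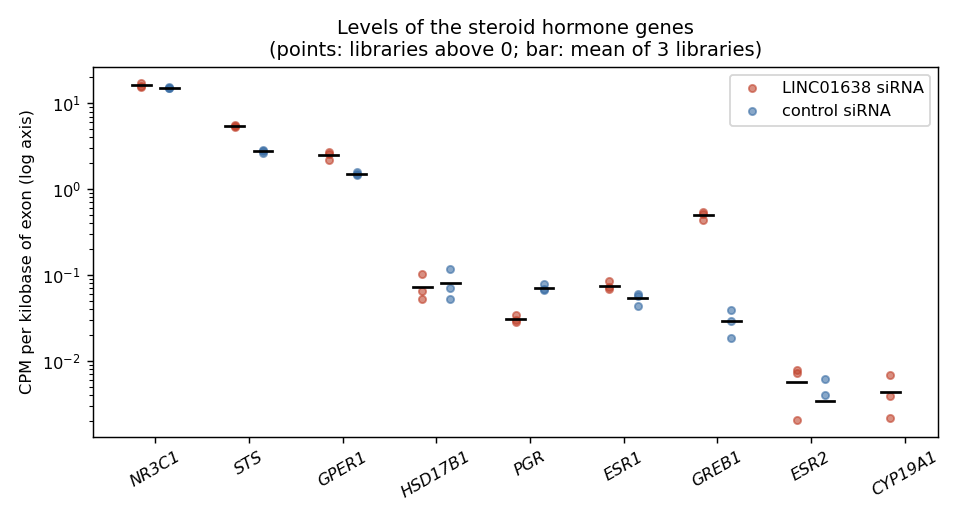
Level of each gene in CPM per kilobase of exon on a log axis, ordered by the control libraries, with LINC01638 siRNA left of control siRNA; points are libraries above 0 and bars are means of 3. NR3C1 lies near 15 to 16, STS and GPER1 between 1.5 and 5.5, and ESR2 and CYP19A1 below 0.01; CYP19A1 has no control point because all 3 libraries were at 0.

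Likeness of pattern was measured as the Euclidean distance between profiles of log2 CPM, centred per gene, over the 6 libraries, among 13585 tested protein-coding genes. STS was closest to ATOSA (distance 0.0947) and VGLL4 (0.102), and GPER1 to PAK6 (0.107) and FHIP1A (0.123). PGR was closest to the replication-dependent histone genes H3C7 (0.143) and H4C5 (0.165). GREB1 was closest to MYOZ2 (0.457) and CHMP4C (0.692), both of which averaged under 0.06 CPM in the control libraries. ESR1 was closest to HYAL3 (0.0950) and RAB36 (0.171), NR3C1 to BDNF (0.0225) and MTREX (0.0260), and HSD17B1 to C19orf38 (0.276) and MSC (0.483). With 2 groups of 3 libraries, such distances rest mostly on the difference between the groups.

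Other genes of steroid action were taken from 7 lists compiled by hand from general knowledge; their medians are set beside that of all genes tested, −0.00142. Genes of the oestrogen response had 22 of 26 tested, of which 12 fell, 8 rose and 2 did not pass, with a median log2 fold change of −0.33. IGFBP4, a binding protein of insulin-like growth factors, fell to 197 ± 17.9 CPM with LINC01638 siRNA, against 492 ± 11.1 CPM with control siRNA (edgeR adjusted p = 1.01e-12). The proto-oncogene MYC fell 1.65-fold (edgeR adjusted p = 1.48e-10) and the fatty acid elongase gene ELOVL2 1.79-fold (edgeR adjusted p = 9.63e-11). TFF1, a textbook ERα target in breast cancer cells, TFF3 and RERG had no count in any library. Of the 8 higher genes, FOXA1, GATA3 and AREG reached the filter cutoff in fewer than 3 control libraries, and of the 12 lower genes CCN5 did so in fewer than 3 LINC01638 siRNA libraries, so that the filter favoured a difference in these 4 genes and their calls carry little weight. Of the 50-base windows of PDZK1 (lower) and CTSD (higher), only 45.9% and 63.5% occurred in no other gene's transcripts. Counts of these genes are thus more exposed to shared reads. In this list 90.9% of the tested genes passed, against 56.0% of all genes tested. Over all tested genes 26.3% were higher and 29.6% lower.

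Glucocorticoid-response genes went both ways, with 8 higher, 7 lower and 6 not passing of 21 tested out of 26 (median log2 fold change 1.68e-04). The share passing was 71.4%, against 56.0% of all genes tested. KLF15, a Krüppel-like factor induced by glucocorticoids, rose to 2.78 ± 0.135 CPM with LINC01638 siRNA, against 0.532 ± 0.0626 CPM with control siRNA (5.19-fold, edgeR adjusted p = 1.72e-09). The phosphatase gene DUSP1 fell 2.09-fold (edgeR adjusted p = 6.85e-12) and ERRFI1, an inhibitor of the EGF receptor, rose 1.81-fold (edgeR adjusted p = 2.95e-11).

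Progesterone-response and decidual genes had 11 of 18 tested, with 5 lower, 2 higher and 4 not passing (median log2 fold change −0.31). In all, 63.6% of those tested passed, against 56.0% of all genes tested. The secreted Wnt ligand gene WNT4 fell 2.51-fold (edgeR adjusted p = 8.46e-09), and HAND2, a transcription factor of the stromal progesterone response, fell 1.97-fold (edgeR adjusted p = 2.95e-11). SPP1, which encodes osteopontin, rose 3.87-fold at low level (edgeR adjusted p = 3.84e-05). The decidual markers PRL and IGFBP1 were too low to test.

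Receptors other than the 9 genes had 4 lower, 2 higher and 2 not passing of 8 tested out of 11 (median log2 fold change −0.087). That is 75% passing, where 56.0% of all genes tested passed. PAQR8, a membrane progestin receptor gene, fell to 4.62 ± 0.208 CPM with LINC01638 siRNA, against 12.5 ± 1.49 CPM with control siRNA (edgeR adjusted p = 3.98e-10). Its relative PAQR7 fell 1.79-fold (edgeR adjusted p = 4.27e-09), while PGRMC1, a membrane-associated progesterone receptor component, rose 1.34-fold (edgeR adjusted p = 2.21e-07). Of 17 receptor chaperones and coregulators, all tested, 6 fell, 4 rose and 7 did not pass (median log2 fold change −0.018). Here 58.8% passed, close to the 56.0% of all genes tested. CARM1, an arginine methyltransferase coactivator, fell to 56.9 ± 4.45 CPM with LINC01638 siRNA, against 137 ± 2.73 CPM with control siRNA (edgeR adjusted p = 6.73e-13). The coactivator gene NCOA3 rose 1.38-fold (edgeR adjusted p = 4.39e-08) and the prohibitin gene PHB2 fell 1.40-fold (edgeR adjusted p = 1.07e-07).

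**Figure D5:**
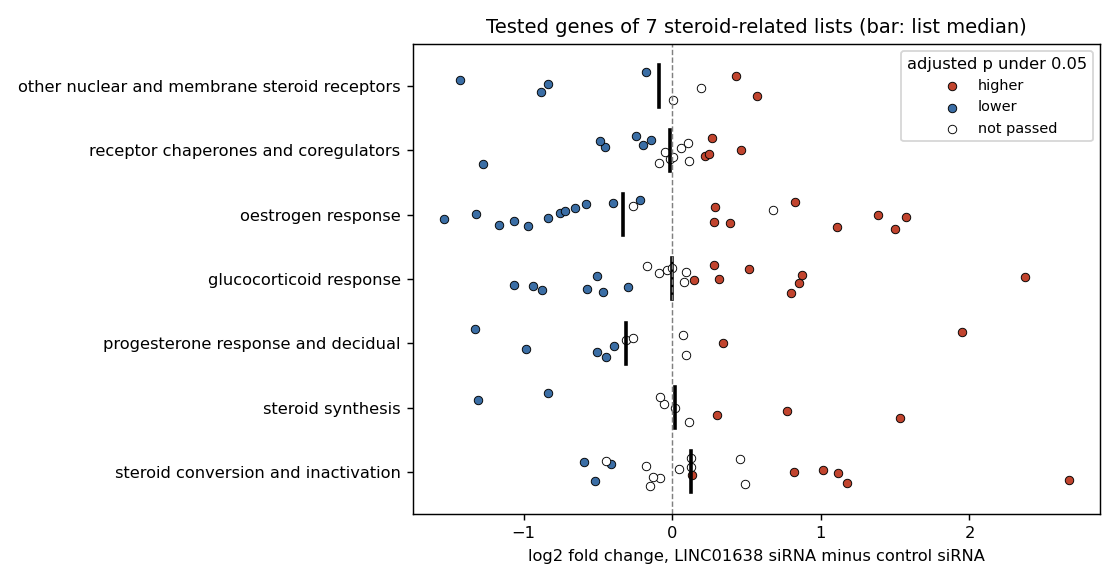
Log2 fold changes of the tested genes of 7 steroid-related lists, LINC01638 siRNA minus control siRNA; each point is a gene, coloured by its call at an adjusted p of 0.05, the bar is the list median and the dashed line the median of all genes tested. The medians run from −0.33 for the oestrogen response to 0.13 for steroid conversion and inactivation, with genes on both sides in every list.

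Genes that make steroids from cholesterol had 9 of 17 tested, with 3 higher, 2 lower and 4 not passing (median log2 fold change 0.017). With 55.6% passing, this list lay at the background of 56.0% over all genes tested. Of those higher, 1 reached the filter cutoff in fewer than 3 control libraries. STAR, which brings cholesterol to the inner mitochondrial membrane, fell to 3.35 ± 0.134 CPM with LINC01638 siRNA, against 8.31 ± 0.239 CPM with control siRNA (edgeR adjusted p = 1.12e-09). The translocator gene TSPO fell 1.78-fold (edgeR adjusted p = 1.02e-10), and FDXR, the reductase that feeds electrons to mitochondrial P450 enzymes, rose 1.70-fold (edgeR adjusted p = 9.92e-10). The side-chain cleavage and 17-hydroxylase genes CYP11A1 and CYP17A1 were too low to test, as was CYP19A1.

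Genes that convert or inactivate steroids had 19 of 26 tested, with 6 higher, 3 lower and 10 not passing (median log2 fold change 0.13). Thus 47.4% of those tested passed, against 56.0% over all genes tested. HSD17B11 stood at 28.2 ± 1.12 CPM with LINC01638 siRNA, against 13.0 ± 1.30 CPM with control siRNA (2.16-fold, edgeR adjusted p = 2.23e-10). HSD17B14 rose 2.02-fold (edgeR adjusted p = 2.05e-08) and HSD17B12, which also elongates fatty acids, rose 1.77-fold (edgeR adjusted p = 2.46e-10). The HSD17B genes of the list did not all move one way. Of 8 tested, 4 were higher, 1 was lower and 3 did not pass, beside 56.0% of all genes tested passing. HSD17B10 was the other higher one (log2 fold change 0.13, edgeR adjusted p = 0.0253), HSD17B8 was lower (log2 fold change −0.41, edgeR adjusted p = 0.0459), and HSD17B4, HSD17B6 and HSD17B7 did not pass. HSD17B2, which oxidises oestradiol back to oestrone, and the oestrogen sulphotransferase gene SULT1E1, which opposes STS, had no count in any library.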

How the data were processed

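RNA-seq libraries of rRNA-depleted total RNA were made with a directional kit, per the labels' protocols, and sequenced as paired 50 bp reads. Per the submitters' processing notes, the tools were STAR 2.7.10b and R 4.2.1 and the build GRCh38 (hg38), with annotation release and settings not given in the sources used here. Deposited counts are whole numbers per gene, not normalized, in 1 table per library; the reverse-strand column, which held most of the reads, was used. Reads mapping to several places are listed as 0 in every table. The 4 rows that name no gene were left out. They held 13.0% ± 0.0422 unmapped reads with LINC01638 siRNA and 12.3% ± 0.351 with control siRNA. Of mapped reads, 13.2% ± 1.67 and 9.18% ± 0.864, in that order, met no annotated exon on the counted strand. Reads over exons on the other strand are among these. A further 7.17% ± 0.163 and 7.49% ± 0.243 lay over several genes.

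Symbols matched 61918 identifiers exactly and 754 without version suffix; positions, lengths and gene classes came from GENCODE 29, and the counting may have used another release. Genes were kept by edgeR's filterByExpr (minimum count 10, minimum total 15), scaled by TMM and tested with edgeR's quasi-likelihood F test, group as the only term, Benjamini-Hochberg adjusted over all 18569 genes tested. SE is the absolute log2 fold change over the square root of F. Steps were tested on simulated data in which far fewer genes changed than were called here. That test does not cover how the scaling behaves when many genes change. The floor is 3 counts per library, and intervals cover the spread between libraries. Of each list, the passing genes of lowest p (up to 3) were named, or the 2 of highest mean CPM where none passed, beside the 9 genes, LINC01638 and the 2 nearest profiles of each tested gene. Some members of the lists are not reported here by name. The 9 genes and the lists were chosen with earlier results of these data known. The alternatives were, for scaling, DESeq2 size factors or library totals; for the test, limma-voom or the Wald test of DESeq2; for the filter, none or at least 1 CPM in 3 libraries; and further protein-coding genes only, the unstranded column, a block for the replicate letter, each library left out, and the longest transcript as length. Fits used edgeR 4.0.16, DESeq2 1.42.0 and limma 3.58.1 in R 4.3.3, and tables and plots pandas 2.3.3, numpy 2.4.6 and matplotlib 3.10.9 in Python 3.11.15.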

Additional observations from a re-analysis of the deposited data

Results flagged for a closer look

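Reads opposite the exons of 2 receptor genes, in a column the comparisons do not use, were above the control level in every LINC01638 siRNA library. Only rises were searched for. On their own strand, 61.5% of all tested genes had no overlap between the groups, in either direction. Opposite ESR2 there were 76, 46 and 47 counts with LINC01638 siRNA, against 19, 34 and 38 counts with control siRNA, a ratio of mean CPM of 1.65. The groups barely separated: the lowest LINC01638 siRNA library had 0.782 CPM and the highest control library 0.778 CPM. SYNE2, the gene that overlaps ESR2 on that strand without sharing an exon base, had a log2 fold change of 0.24 and did not pass (edgeR adjusted p = 0.360). Opposite GPER1 there were 58, 41 and 39 counts with LINC01638 siRNA, against 23, 17 and 27 counts with control siRNA, a ratio of 1.88. GPER1 itself rose, and the opposite strand held 9.59% of the reads of both strands with LINC01638 siRNA and 8.57% with control siRNA. C7orf50, which overlaps GPER1 on that strand, fell. Reads that met no annotated exon on the counted strand were also a larger share with LINC01638 siRNA. That share can hold the opposite-strand reads described here, so it is not a separate measure. Its part in these counts was not tested.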

How the results depend on the processing

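The calls of GREB1, STS and GPER1 (higher) and of LINC01638 (lower) kept their direction and stayed past the threshold under every alternative that gave a value, with log2 fold changes of 3.85 to 4.36, 0.94 to 1.09, 0.65 to 0.81 and −1.93 to −1.77. PGR did so too (−1.30 to −1.11), except that the stricter filter removed it and left 0 genes of the set lower. With library totals alone, which moved the median of all genes to 0.10, ESR1 (0.60, adjusted p = 0.0315) and NR3C1 (0.19, adjusted p = 0.00226) passed, giving 5 genes higher; with protein-coding genes only they passed at 0.54 and 0.13, again 5 higher; with the stricter filter NR3C1 passed at 0.12. HSD17B1 changed sign without LINC01638 siRNA replicate A (0.035) or control replicate A (0.23), in a leave-one-out range of −0.46 to 0.23. Among the lists, library totals gave 7 chaperones and coregulators and 4 progesterone-response genes higher, the stricter filter 5 oestrogen-response genes higher, and the column without strand 5 conversion genes lower. Same-lettered replicates did not deviate together (correlations of −0.075, −0.020 and −0.018). These values carry no test and cannot tell whether a letter stands for a shared culture or day. The replicate block left 3 genes of the set higher and 1 lower, with 4676 genes higher and 5286 lower over all genes. Without a filter ESR2 and CYP19A1 did not pass (adjusted p = 0.716 and 0.131). In the column without strand ESR2 could be tested and passed (0.72, adjusted p = 0.0370), giving 4 genes of the set higher, with nearly all of those reads on the strand opposite ESR2. Depth limits ESR1, PGR, HSD17B1 and the control level of GREB1, each at about 1 CPM or less.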

Other observations

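ERα acts on chromatin together with the pioneer factor FOXA1 and with GATA3, and both genes, named after their values were seen, were near the filter on low counts. FOXA1 stood at 0.462 ± 0.0832 CPM with LINC01638 siRNA and 0.154 ± 0.0751 CPM with control siRNA, and GATA3 at 0.353 ± 0.0839 CPM with LINC01638 siRNA and 0.135 ± 0.0521 CPM with control siRNA (SD, n = 3 each). All 3 LINC01638 siRNA libraries reached the filter's CPM cutoff for both genes, against 1 control library for FOXA1 and 0 for GATA3. They were tested only because of the group in which they are higher, so no test is given for them. CYP1A1 and CYP1B1, likewise named after their values were seen, hydroxylate oestrogens. CYP1A1 averaged 1.80 ± 0.449 CPM with LINC01638 siRNA and 0.280 ± 0.0747 CPM with control siRNA, a 6.37-fold rise (edgeR adjusted p = 6.79e-08). The far more abundant CYP1B1 stood at 136 ± 17.6 CPM with LINC01638 siRNA and 145 ± 14.0 CPM with control siRNA and did not pass (edgeR adjusted p = 0.488).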
